A study of Mus musculus with 106 samples.

Results

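The transcripts described here are those of 10 mouse genes that mark the formation and the resorption of bone, chosen by symbol out of 25874 genes in 4 tables of raw RNA-seq counts. They are the osteoblast genes Runx2, Sp7, Bglap, Bglap2, Ibsp and Spp1, the osteoclast genes Acp5 and Ctsk, and Tnfsf11 and Tnfrsf11b, which link both cell types. All 10 had a row in every table. The study housed wild-type male C57BL/6 mice (C57BL/6J in the labels of the warm experiment and of all quadriceps samples) at different temperatures. Cold mice were stepped down through 18 °C and then 14 °C, 5 days each, before 2 weeks at 10 °C, warm mice spent 4 weeks at 34 °C, and the controls of each experiment stayed at 22 °C. The mice were 8 weeks old at the start, and the labels give an age of 11 weeks for the cold samples and 12 weeks for the warm samples and for all quadriceps samples. The animals of the cold and the warm experiment came from different suppliers, so treated mice are compared with the controls of their own experiment. Quadriceps is the exception: the sample labels do not part its 6 controls, and both comparisons use them all. The column names of the counts do part them by prefix (QM beside the 10 °C columns, QC beside the 34 °C columns). No group carried a transgene or a deletion.

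The question was whether a change of housing temperature goes with a change in these transcripts, first in bone marrow, the tissue in contact with bone, and then in 10 other tissues at 10 °C and 5 tissues at 34 °C. The 106 libraries fell into 31 groups. Bone marrow had 6 libraries at 10 °C and 6 at 22 °C, and spinal cord had 5 and 5, each library from 1 mouse. Spleen, interscapular brown fat (iBAT), inguinal subcutaneous fat (ingSAT), perigonadal visceral fat (pgVAT), ileum, liver, brain and hypothalamus had 3 libraries a group in the cold experiment, each pooled from 2 mice. Brown fat, ileum, liver and brain had 3 libraries a group in the warm experiment. For brown fat these were 3 individual mice at 22 °C, and 2 individual mice and 1 pool of 2 mice at 34 °C. Quadriceps muscle had 3 libraries at 10 °C, 3 at 34 °C and 6 at 22 °C that the sample labels do not assign to either experiment.

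Total counts per library ran from 15591374 to 22139577 in bone marrow, 21953207 to 29029283 in spinal cord, 4262403 to 25964912 in the table of 8 tissues and 29545458 to 62880248 in the warm table. Marrow was flushed out of the bone. Summed osteocyte markers (6 genes, among them Dmp1, Mepe and Sost) reached only 1.22 to 3.92 counts-per-million (CPM, TMM-scaled) in the 12 marrow libraries, while the mature neutrophil markers summed to 22200 to 36600 CPM and the hepatocyte markers to at most 0.129 CPM. The alpha globin genes Hba-a1 and Hba-a2, which define red cell precursors, were listed at 0 in every marrow library. In the brain, 1 of the 3 libraries at 22 °C from the cold experiment (replicate 2) held a high hepatocyte marker sum. It was 59000 CPM, against 736 to 1100 CPM in the other 5. The Acp5 difference in brain, and the test of whether it differs between tissues, are given with and without this library. The shares of all genes and the counts of list genes for this brain comparison are given only with it. In bulk tissue, fewer cells of a type and less RNA per cell cannot be told apart.

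Bone is built by osteoblasts and removed by osteoclasts. Runx2 and Sp7 (osterix) are the transcription factors that commit a precursor to the osteoblast lineage, and Bglap and Bglap2 (osteocalcin), Ibsp (bone sialoprotein) and Spp1 (osteopontin) are matrix proteins, of which Spp1 is also made by macrophages, neurons and many epithelia. Osteoclasts arise from the monocyte and macrophage lineage when Tnfsf11 (RANKL), shown by osteoblasts, osteocytes and stromal cells, binds its receptor RANK, and Tnfrsf11b (osteoprotegerin) is the soluble decoy receptor that captures it. Acp5 (tartrate-resistant acid phosphatase) and Ctsk (cathepsin K, the protease that cuts type I collagen) are the enzymes of the resorbing osteoclast. Acp5 is also expressed by macrophages and Ctsk by fibroblasts.

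On the mouse build mm10 (GRCm38), Acp5 lies at chr9:22126727-22135711 on the minus strand and Ctsk at chr3:95499256-95509362 on the plus strand. Runx2 lies at chr17:44495987-44814797 (minus), Sp7 at chr15:102356606-102367182 (minus), Tnfsf11 at chr14:78277445-78308043 (minus) and Tnfrsf11b at chr15:54250619-54278484 (minus). Ibsp (chr5:104299171-104311469) and Spp1 (chr5:104435118-104441050) are neighbours on the plus strand. Bglap (chr3:88383501-88384464) and Bglap2 (chr3:88377736-88378699) are near-identical copies on the minus strand, so the split of reads between them is uncertain. RefSeq promoter windows of 300 bases (250 before to 50 after a transcription start, GRCm38.p6) were found for 7 of the 10 genes, 10 windows in all. The windows of both resorption genes are shown because these genes carry the calls below, with matches to GGAAA or TTTCC (the core bound by NFAT factors, both strands) and CATGTG or CACATG (the E-box read by MITF) in capitals. Acp5 has 3 windows, of which the one with an E-box is printed.

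Acp5, chr9:22130549-22130848, minus strand: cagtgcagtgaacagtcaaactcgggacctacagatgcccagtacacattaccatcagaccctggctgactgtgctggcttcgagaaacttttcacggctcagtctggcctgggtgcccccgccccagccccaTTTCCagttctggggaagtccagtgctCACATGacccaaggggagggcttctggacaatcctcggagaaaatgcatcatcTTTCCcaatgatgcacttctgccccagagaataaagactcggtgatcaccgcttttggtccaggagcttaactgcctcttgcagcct

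Ctsk, chr3:95498960-95499259, plus strand: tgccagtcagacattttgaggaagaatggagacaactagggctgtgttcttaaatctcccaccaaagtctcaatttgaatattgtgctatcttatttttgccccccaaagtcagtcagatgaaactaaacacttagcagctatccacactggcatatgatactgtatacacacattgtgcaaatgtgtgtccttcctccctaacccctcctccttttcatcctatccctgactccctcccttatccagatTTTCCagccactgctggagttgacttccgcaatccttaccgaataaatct

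The NFAT core occurred in 8 of the 10 windows of these genes and in 61.3% of all 32851 promoter windows, and the MITF E-box in 3 of 10 and in 14.2%. The RUNX core (TGTGGT or its complement ACCACA) was in 3 of 10 windows against 16.8% of all, and the AP-1 site TGANTCA in 0 of 10 against 7.81%. A match describes letters in the window and is not a bound site.

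In bone marrow at 10 °C, both resorption enzymes rose. Acp5 was 1.33-fold and Ctsk 2.66-fold above 22 °C, while the osteoblast transcription factor Runx2 and the matrix gene Ibsp did not pass the test, with mean levels within 1.10-fold of the controls. Of the 10 genes, 6 passed the filter on low counts (mean log2 CPM above 0), and 2 of these 6 passed an adjusted p of 0.05 (edgeR's quasi-likelihood test, Benjamini-Hochberg over 12525 genes), beside 19% of all genes tested. By the limits the study used (p of at most 0.05 and a fold above 1.5), 1 of 6 passed, Ctsk, beside 1.29% of all genes. DESeq2 and edgeR's exact test also called 2 at an adjusted p of 0.05. The median log2 difference of the 6 was 0.41, beside 0.01 over all genes tested.

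**Figure D1:**
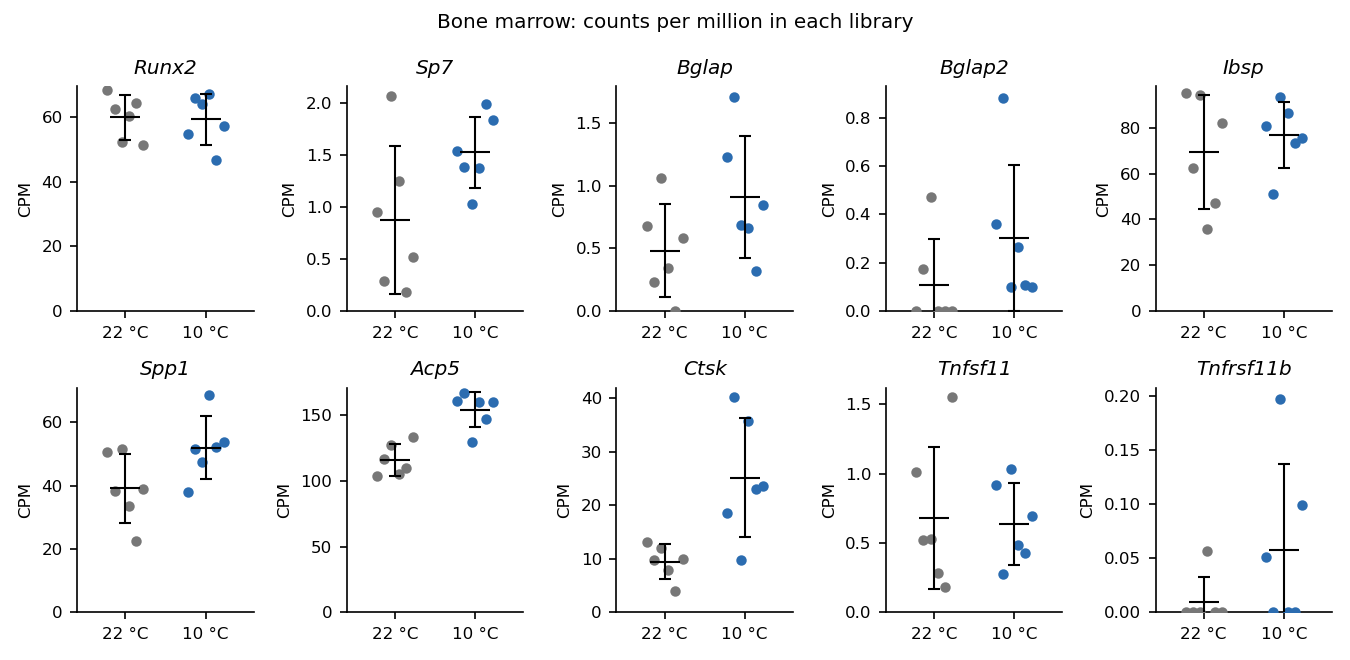
CPM of the 10 genes in each bone marrow library at 22 °C (grey, 6 libraries) and 10 °C (blue, 6 libraries), with the mean and SD as a bar. Ctsk lies between 3.91 and 13.1 CPM at 22 °C and between 9.78 and 40.2 CPM at 10 °C, while the Runx2 groups overlap throughout.

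Among the formation genes, Runx2 ranged from 46.73 to 67.20 CPM at 10 °C (median 60.67) and from 51.30 to 68.59 CPM at 22 °C (median 61.54), a log2 difference of −0.02 (SE 0.09, adjusted p = 0.924, edgeR). Sp7, which acts downstream of Runx2, ranged from 1.032 to 1.987 CPM at 10 °C (median 1.456) and from 0.1833 to 2.067 CPM at 22 °C (median 0.7356). Its log2 difference was 0.78 (SE 0.39, adjusted p = 0.175, edgeR), on 21 to 37 counts a library at 10 °C and 3 to 35 at 22 °C. The highest Sp7 value of all 12 belonged to a control, 22 °C replicate 3. Without that library the log2 difference was 1.22 (adjusted p = 0.0203, edgeR), so this 1 library decided the call.

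The matrix gene Ibsp ranged from 51.17 to 93.26 CPM at 10 °C (median 78.23) and from 35.92 to 95.31 CPM at 22 °C (median 72.39), with a log2 difference of 0.14 (SE 0.21, adjusted p = 0.675, edgeR). The controls spanned more than the cold libraries and enclosed all of them. Spp1 ranged from 37.88 to 68.66 CPM at 10 °C (median 51.97) and from 22.42 to 51.62 CPM at 22 °C (median 38.54). Its log2 difference was 0.41 (SE 0.17) with an adjusted p of 0.106 in edgeR, and without 22 °C replicate 3 the adjusted p was 0.0436. The osteocalcin copies stayed under the filter. Bglap had 6 to 31 counts a library at 10 °C (median 16) and 0 to 18 at 22 °C (median 7.500), and fitted without the filter it gave a log2 difference of 0.89 with an unadjusted p of 0.0766 in edgeR. Bglap2 had 2 to 16 counts at 10 °C and 0 to 8 at 22 °C (unadjusted p = 0.107 in edgeR's fit across all genes without the filter).

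The resorption enzymes separated the groups more clearly. Acp5 ranged from 129.9 to 167.1 CPM at 10 °C (median 160.3) and from 103.5 to 133.4 CPM at 22 °C (median 113.4). Only the lowest cold library lay below the highest control. The log2 difference was 0.41 (SE 0.07, adjusted p = 0.00372, edgeR), and with any 1 of the 12 libraries left out it lay between 0.38 and 0.45. Ctsk ranged from 9.783 to 40.20 CPM at 10 °C (median 23.34) and from 3.910 to 13.08 CPM at 22 °C (median 9.874), a log2 difference of 1.41 (SE 0.30, adjusted p = 0.00728, edgeR). The cold replicate 3 at 9.783 CPM fell among the controls, and the other 5 lay above every control. With any 1 library left out it lay between 1.24 and 1.58, with adjusted p from 0.00487 to 0.0175 in edgeR.

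The ligand and the decoy receptor that govern osteoclast formation were too low in flushed marrow to test. Tnfsf11 had 5 to 21 counts a library at 10 °C and 3 to 24 at 22 °C, which overlapped almost wholly. Tnfrsf11b had 0 to 4 counts at 10 °C and 0 to 1 at 22 °C, so no ratio of ligand to decoy receptor is given. Differences in these transcripts were not detectable at this depth.

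Genes of the same processes were read beside the 10 from lists of osteoblast and matrix genes, osteoclast genes, Wnt and BMP genes, osteocyte genes and cartilage genes. The counts are to be read beside the 19% of all genes tested that passed an adjusted p of 0.05 in marrow (918 rose and 1459 fell). The osteoblast and the Wnt and BMP counts lie near that share. Of the 16 osteoblast and matrix genes, 9 were tested and 2 rose: Col1a1, the main chain of type I collagen, with 52.1 CPM against 21.7 CPM (log2 1.26, SE 0.42, adjusted p = 0.0484, edgeR), and Alpl, the mineralizing alkaline phosphatase, with 7.28 against 5.15 CPM (log2 0.50, adjusted p = 0.0474, edgeR). Both lie close to the limit, and with any 1 library left out between 0 and 5 genes of this list rose. Of the 22 further osteoclast genes, 17 were tested, 2 rose and 4 fell. Car2, the carbonic anhydrase that supplies acid, rose by 0.35 on the log2 scale, and the lysosomal protease Ctsb by 0.15. Tyrobp, Mmp9, Tcirg1 and Csf1r, the receptor for the macrophage growth factor CSF1, fell by 0.33, 0.33, 0.27 and 0.22. Car2 is also abundant in red cell precursors and Mmp9 in neutrophils. The RANK gene Tnfrsf11a (log2 0.04) and the osteoclast regulator Nfatc1 (log2 −0.09) did not pass. The osteoclast genes under the filter were not tested. Of these, Oscar averaged 0.791 CPM at 10 °C and 0.347 CPM at 22 °C, and Dcstamp 0.423 and 0.185. Ocstamp averaged 0.250 and 0.118, Siglec15 0.241 and 0.131, and Calcr 0.0972 and 0.0108. Of the 16 Wnt and BMP genes, 12 were tested and 2 fell, the BMP receptor Bmpr1a (log2 −0.40) and the Wnt co-receptor Lrp5 (log2 −0.15). The only osteocyte gene tested, Phex, had a log2 difference of 0.46 (adjusted p = 0.253, edgeR). Under the filter and not tested, Dmp1 was at 0.511 to 1.02 CPM at 10 °C and 0.122 to 0.505 CPM at 22 °C. Mepe, Sost, Fgf23 and Pdpn overlapped between the groups. Of the 2 tested cartilage genes 0 passed in edgeR, with 1 of them at an unadjusted p under 0.05 and 0 in DESeq2 and the exact test.

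Markers of other marrow cells moved with these genes. All 8 B cell markers rose (sums 888 to 1000 CPM at 10 °C and 606 to 858 at 22 °C), and 5 of 5 tested mature neutrophil markers fell (sums 22200 to 24700 and 24300 to 36600 CPM). Of the 6 neutrophil precursor markers 4 fell as well, and 2 of 4 tested red cell markers rose. Among cells that can carry Acp5 or Ctsk, 2 of 9 tested macrophage markers rose, Cd163 by 0.70 and Mrc1 by 0.44 on the log2 scale. The macrophage sums were 536 to 692 CPM against 334 to 592. Csf1r and Tyrobp, listed above with the osteoclast genes that macrophages share, fell by 0.22 and 0.33. Of 10 stroma markers 2 rose, Adipoq by 0.58 and Vcam1 by 0.31, with sums of 912 to 1520 CPM against 629 to 1570. The macrophage and stroma counts lie near the 19% of all genes tested that passed an adjusted p of 0.05 in marrow. The endothelial, T cell and megakaryocyte lists held 0 genes that passed the adjusted p in edgeR, DESeq2 or the exact test, with 1 gene, Cd3d, at an unadjusted p under 0.05. The part of these cell types in the Acp5 and Ctsk results was not tested.

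Within the groups, pairwise correlations of the 6 tested genes did not settle whether these genes vary together. Over the 12 marrow libraries, as deviations from the group means, the highest of 15 pairwise correlations was that of Spp1 with Ctsk (Pearson's r = 0.755, permutation p = 0.00716, adjusted p = 0.107, and Spearman's rho = 0.706, permutation p = 0.0136, adjusted p = 0.205). Without the 2 libraries farthest from the median of Spp1, r was 0.611. Acp5 with Ctsk gave r = 0.558 (permutation adjusted p = 0.291), and 0 of the 15 pairs passed after adjustment. The genes whose marrow pattern was most like that of Ibsp, by Pearson's r of these deviations among 12525 genes, were Fkbp9 (0.974), Pcolce (0.968), Antxr1 (0.958), Epas1 (0.957) and Gpx3 (0.950), and those most like Acp5 were Adamtsl5 (0.888), Zbed3 (0.864), Psmc3ip (0.854), Prpsap2 (0.844) and Cenpt (0.844). The 12 libraries share their depth and preparation, and these values are descriptions.

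In the 10 other tissues at 10 °C, 45 of 100 gene and tissue pairs passed the filter, 2 passed the study's limits and 0 an adjusted p of 0.05 (edgeR). At an unadjusted p under 0.05 there were 5 (Runx2 in pgVAT and ileum, Acp5 in quadriceps and ingSAT, and Sp7 in spinal cord), and DESeq2 and edgeR's exact test also gave 0 after adjustment. By the study's limits DESeq2 called 3 and the exact test 4. The background of genes past an adjusted p of 0.05 was 11.4% in brown fat and 7.51% in ingSAT, 0.338% in quadriceps, 0.0779% in spleen, 0.0639% in ileum and 0.00695% in spinal cord, and 0% in pgVAT, liver, brain and hypothalamus. By the study's limits it was 16.3% in ingSAT, 13.3% in brown fat, 7.96% in pgVAT, 3.32% in quadriceps, 3.28% in liver, 2.71% in ileum and in brain, 2.68% in spleen, 0.578% in hypothalamus and 0.271% in spinal cord.

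**Figure D2:**
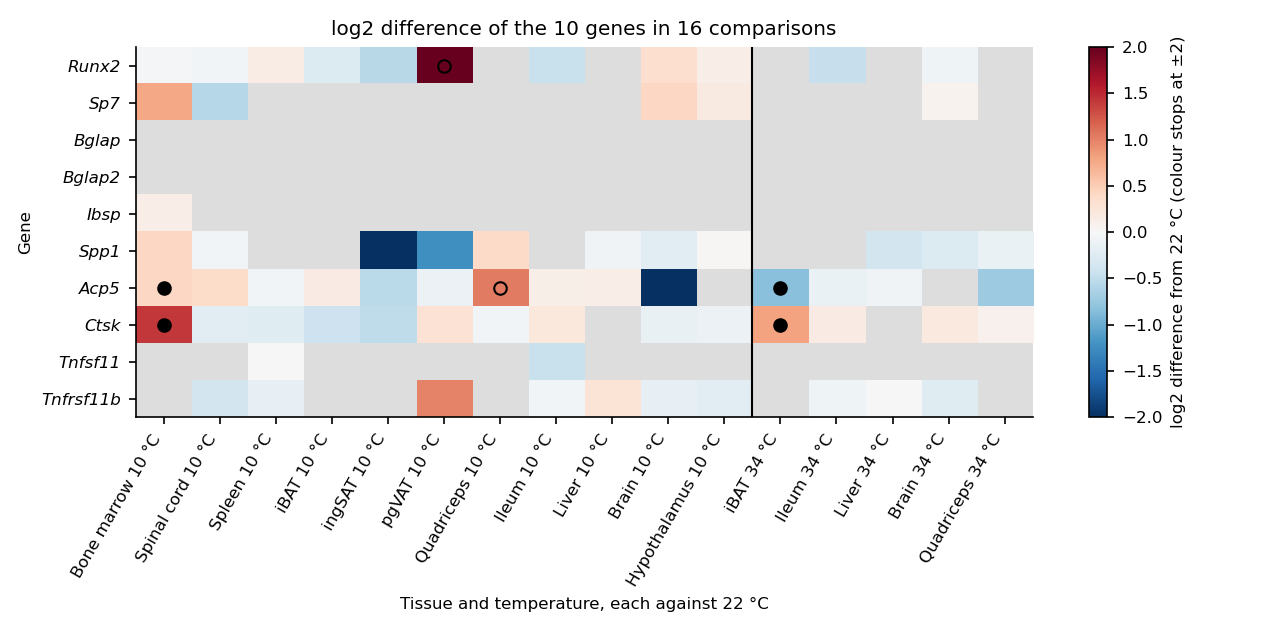
log2 difference from 22 °C for each gene (rows) in each of 16 comparisons (columns, 10 °C left of the line and 34 °C right of it). Filled circles mark an adjusted p under 0.05 (4 cells), open circles the study's limits alone (2 cells), and grey cells were under the filter on low counts (92 of 160).

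Both pairs past the study's limits came from tissues in which libraries of 1 group differed widely. In pgVAT, Runx2 was at 40.36, 2.094 and 32.03 CPM at 10 °C and at 2.326, 3.054 and 6.908 CPM at 22 °C, a log2 difference of 2.56 (SE 0.94, adjusted p = 0.593, edgeR). Replicate 2 at 10 °C lay below all 3 controls and the other 2 lay far above. The summed epididymis markers (6 genes, among them Crisp1 and Lcn5), which belong to the organ this fat pad lies against, were 18700, 2.65 and 21500 CPM in the same cold libraries and 2630, 883 and 589 CPM in the controls. Runx2 was high in the libraries in which these markers were high, and the part of epididymal RNA in the result was not tested. Without 10 °C replicate 2 the log2 difference was 3.15 (adjusted p = 0.00752, edgeR). The decoy receptor gene Tnfrsf11b was at 6.752, 10.47 and 5.373 CPM at 10 °C in this fat and at 5.067, 4.303 and 1.625 CPM at 22 °C. The groups did not overlap, and the log2 difference of 0.99 (SE 0.49, adjusted p = 0.603, edgeR) did not pass.

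In quadriceps, Acp5 was at 15.71, 20.85 and 7.032 CPM at 10 °C and ran from 3.739 to 11.62 CPM over the 6 controls, a log2 difference of 1.04 (SE 0.36, adjusted p = 0.283, edgeR). Of the cold libraries 2 lay above all 6 controls and the other among them. Against the 3 controls whose mean equals the authors' deposited control mean for this comparison, the difference was 1.34 (adjusted p = 0.397, edgeR), and without 10 °C replicate 2 the gene no longer passed the study's limits. The summed brown fat markers were 82.6 to 216 CPM at 10 °C and 27.1 to 58.0 CPM at 22 °C, and 10 °C replicate 1 had 161 CPM of epididymis markers. At 34 °C, against the same 6 controls, Acp5 was at 4.835, 2.344 and 5.362 CPM, a log2 difference of −0.73 (SE 0.33, adjusted p = 0.913, edgeR). Against only the 3 controls outside that deposited mean it was −0.97 (adjusted p = 1.0, edgeR) and passed the study's limits, as it did against all 6 in DESeq2 and edgeR's exact test. Ibsp had 42, 51 and 0 counts at 10 °C, 18, 46, 80, 0, 0 and 0 in the 6 controls and 0 in all 3 libraries at 34 °C.

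Acp5 in ingSAT was at 357.1, 246.1 and 266.0 CPM at 10 °C and at 442.3, 464.9 and 362.3 CPM at 22 °C. Every cold library lay below every control, and the log2 difference of −0.54 (SE 0.19, adjusted p = 0.117, edgeR) did not pass. Groups this small can separate by chance, and the share of all genes that separated is not given. Each lack of overlap named for the other tissues at 10 °C is therefore a description only. Macrophage marker sums ran from 660 to 964 CPM at 10 °C and from 881 to 1720 CPM at 22 °C in this fat, and their part was not tested. Spp1 was at 0.7447, 0.4312 and 0.2950 CPM against 11.06, 0.9947 and 0.1982 CPM, so its log2 difference of −3.02 (adjusted p = 0.196, edgeR) came with 1 high control. In liver, Acp5 was at 110.0, 114.9 and 120.1 CPM at 10 °C and at 103.8, 103.1 and 107.4 CPM at 22 °C, also without overlap (log2 0.13, SE 0.07, adjusted p = 0.340, edgeR). In brown fat at 10 °C, Acp5 was at 164.1, 207.3 and 185.1 CPM against 150.2, 143.9 and 201.4 CPM (log2 0.16, adjusted p = 0.561, edgeR) and Ctsk had a log2 difference of −0.42 (adjusted p = 0.318, edgeR).

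In the spleen, another site of blood cell formation, Ctsk was at 4.736, 4.458 and 3.655 CPM at 10 °C and at 5.248, 4.842 and 5.237 CPM at 22 °C (log2 −0.24, SE 0.17, adjusted p = 0.611, edgeR). Every cold library lay below every control, and the difference did not pass. Acp5 in spleen had a log2 difference of −0.05 (SE 0.08). Runx2 in ileum was at 7.216, 9.757 and 9.200 CPM against 9.706, 14.63 and 11.12 CPM (log2 −0.44, SE 0.19, adjusted p = 0.289, edgeR). Sp7 in spinal cord was at 1.523, 2.755, 2.975, 2.180 and 2.574 CPM against 2.237, 3.068, 5.867, 3.376 and 3.261 CPM (log2 −0.57, SE 0.25, adjusted p = 0.780, edgeR). The groups overlapped for Runx2 in ileum and for Sp7 in spinal cord.

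In brain, Acp5 was at 0.3857, 0.6773 and 0.4017 CPM at 10 °C and at 0.2004, 71.06 and 0.8308 CPM at 22 °C. The log2 difference of −5.62 (SE 2.0, adjusted p = 0.706, edgeR) came from the library with the high hepatocyte markers, and without it Acp5 was under the filter. Acp5 is itself expressed in liver at over 100 CPM in the same table. Brown adipocyte and enterocyte marker sums in brain also reached 674 and 115 CPM at 22 °C, against at most 50.8 and 1.46 CPM at 10 °C. The part of other tissue in the brain Acp5 value was not tested.

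**Figure D3:**
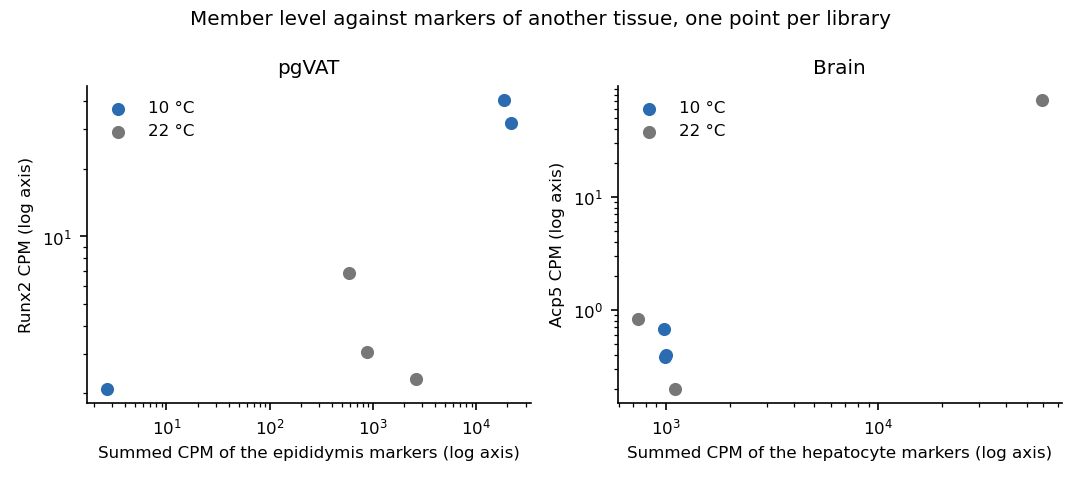
Left: Runx2 CPM against the summed CPM of epididymis markers in the 6 pgVAT libraries. Right: Acp5 CPM against the summed CPM of hepatocyte markers, Ttr among them, in the 6 brain libraries of the cold experiment. All axes are logarithmic. In each panel the libraries with the highest marker sums (21500 and 18700 CPM left, 59000 CPM right) also hold the highest values of the gene.

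The pathway lists held changes in 3 of these 10 tissues, at the adjusted p whose all-gene shares are given above. In brown fat at 10 °C, Alpl rose by 1.46 and the parathyroid hormone receptor Pth1r by 1.27 on the log2 scale (2 of 8 tested osteoblast genes), and the BMP inhibitor Smad6 and the Wnt co-receptor Lrp6 fell by 1.55 and 0.41 (2 of 11), while 0 of 16 osteoclast genes passed in edgeR, DESeq2 or the exact test, with 3 at an unadjusted p under 0.05, beside 11.4% of all genes. In ingSAT, Phospho1, a phosphatase of mineralization, rose by 1.85 and the matrix protein Sparc fell by 1.22 (2 of 11), and Smad6 and Bmp2 fell by 0.85 and 0.83 (2 of 14), while 0 of 18 osteoclast genes passed in edgeR, with 8 at an unadjusted p under 0.05, 5 past the adjusted p in DESeq2 and 3 in the exact test, beside 7.51% of all genes in edgeR. In spleen Mmp9 fell by 1.13 (1 of 16 osteoclast genes, beside 0.0779% of all genes). In the other 7 tissues, 0 of 312 tests of these lists passed in edgeR, with 41 at an unadjusted p under 0.05, 8 past the adjusted p in DESeq2 and 5 in the exact test.

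Whether the effect of 10 °C differed between tissues was tested for the 8 tissues that share a table. Of the 5 genes that passed the filter over these 48 libraries, the tissue by temperature term passed for Runx2 (adjusted p = 0.0123, edgeR) and Acp5 (adjusted p = 0.0189, edgeR), beside 15.7% of 15887 genes. For Runx2 the adjusted p was 0.0606 without pgVAT, and for Acp5 it was 0.724 without the brain library with hepatocyte markers. The terms of Ctsk, Spp1 and Tnfrsf11b did not pass (adjusted p = 0.761, 0.224 and 0.283, edgeR).

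In brown fat at 34 °C, the resorption enzymes moved in opposite directions: Acp5 fell and Ctsk rose. Of 50 gene and tissue pairs, 17 passed the filter, and 2 passed both the study's limits and an adjusted p of 0.05, both in brown fat, where 2 genes were tested. There 28.9% of all genes passed an adjusted p of 0.05 and 19.4% the study's limits. In the other 4 tissues 0 of 15 passed by either rule in edgeR, with 0 at an unadjusted p under 0.05. For quadriceps this count rests on all its controls together. Against only the 3 controls outside the authors' deposited mean, Acp5 in quadriceps passed the study's limits (log2 −0.97, unadjusted p = 0.0252, edgeR). By the study's limits DESeq2 and edgeR's exact test each called 1 of these 15, Acp5 in quadriceps, and 0 after adjustment. The background in edgeR was 0% in brain, ileum and quadriceps and 0.385% in liver for the adjusted p, and 0.193% in brain, 1.25% in quadriceps, 2.83% in ileum and 3.38% in liver for the study's limits.

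Acp5 in brown fat was at 128.7, 124.4 and 121.1 CPM at 34 °C and at 260.8, 207.5 and 200.9 CPM at 22 °C. It fell by 0.83 on the log2 scale (SE 0.12, 1.77-fold lower, adjusted p = 0.00383, edgeR), with no overlap, and between 0.70 and 0.90 with any 1 library left out. Ctsk was at 15.32, 13.58 and 14.40 CPM at 34 °C and at 6.101, 8.266 and 10.50 CPM at 22 °C. It rose by 0.81 on the log2 scale (SE 0.20, adjusted p = 0.0216, edgeR), also with no overlap. Without 34 °C replicate 1 or replicate 3 the Ctsk difference was 0.76 and 0.82 with adjusted p of 0.0776 and 0.0541 in edgeR, so its call depends on 1 library.

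**Figure D4:**
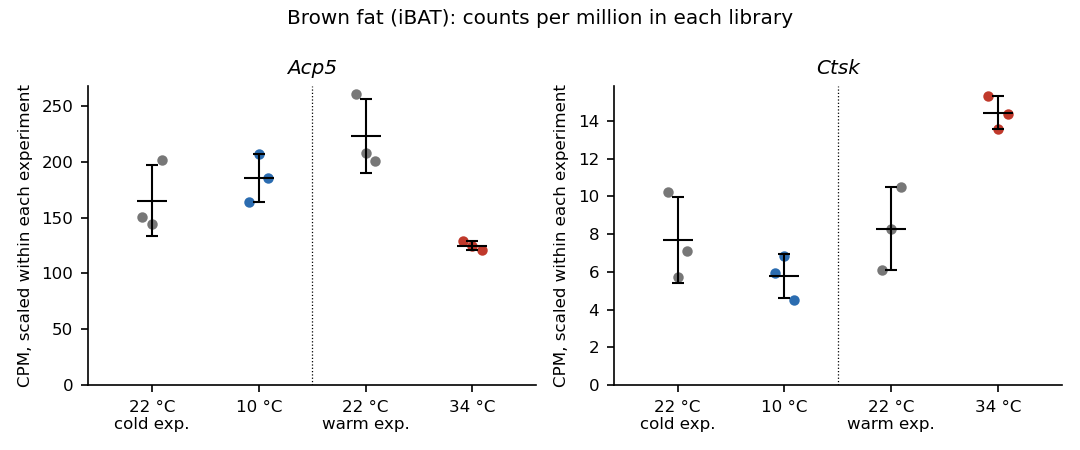
Acp5 (left) and Ctsk (right) in CPM for each brown fat library, with mean and SD (3 libraries a group). The dotted line parts the cold experiment, in which the groups overlap, from the warm one, in which Acp5 is at 121 to 129 CPM at 34 °C against 201 to 261 CPM at 22 °C and Ctsk at 13.6 to 15.3 CPM against 6.10 to 10.5 CPM.

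The other genes were under the filter in this fat. Spp1 had 191 counts in 34 °C replicate 2 and 3 to 10 counts in the other 5 libraries, and Bglap had 12, 6 and 4 counts at 34 °C and 1, 0 and 0 at 22 °C. Markers of other cells were read as well, at the adjusted p of 0.05 that 28.9% of all genes passed in this fat. The brown adipocyte markers (Ucp1, Cidea, Elovl3 and Ppargc1a) summed to 4040 to 5370 CPM at 34 °C and 9000 to 12000 CPM at 22 °C, with 3 of 4 falling. The macrophage markers summed to 157 to 239 CPM against 89.8 to 153 CPM, with 0 of 7 tested past the adjusted p in edgeR, 4 at an unadjusted p under 0.05, 4 in DESeq2 and 2 in the exact test. Skeletal muscle markers summed to 839 to 3230 CPM at 34 °C and to 0.961, 4030 and 6.40 CPM at 22 °C. The part of these cells in the Acp5 and Ctsk results was not tested. The pathway lists are likewise to be read beside 28.9% of all genes. Among the osteoclast genes, which macrophages share, 3 of 15 tested rose, among them Trem2 (log2 3.70) and Tyrobp (1.12). Of 8 osteoblast genes 1 rose, Smpd3 by 0.64, and 2 fell, among them Phospho1 by 0.59. Of 11 Wnt and BMP genes 1 rose and 2 fell, Wnt5a by 0.66 and Axin2 by 0.62.

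At 22 °C the 10 genes differed widely in where they were found. Levels are given here as CPM divided by the exon length in kilobases (RPKM), which allows genes to be set side by side, and are ordered only within a table, while values from different tables are given side by side. Ibsp averaged 33.6 ± 12.6 (SD, n = 6) in bone marrow and at most 0.335 in every other tissue. Runx2 was at 6.74 ± 0.731 (SD, n = 6) in marrow. In the table of 8 tissues, Runx2 stood highest in spleen (1.74) and ileum (1.36), which overlapped. The osteocalcin copies averaged 0.785 and 0.231 in marrow and at most 0.109 and 0.176 elsewhere. Bglap2 had a median of 0 in marrow, where its 6 libraries ran from 0 to 1.03. Sp7 was at 0.260 ± 0.215 (SD, n = 6) in marrow and 1.05 ± 0.409 (SD, n = 5) in spinal cord, and Spp1 at 23.8 ± 7.03 (SD, n = 6) in marrow and 101 ± 8.62 (SD, n = 5) in spinal cord. In the 8 tissues Spp1 was highest in brain (31.5) and liver (26.2), which overlapped.

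In the table of 8 tissues, Acp5 was highest in subcutaneous fat. Its RPKM fell from ingSAT (207) to pgVAT (151), spleen (93.8), brown fat (86.1), liver (52.8) and ileum (42.1), where only spleen and brown fat overlapped, and hypothalamus was at 0.109. Brain averaged 9.10 there, with a median of 0.438, because of the 1 library named above. In the warm table brown fat (99.6) and ileum (85.2) overlapped and liver (68.8), quadriceps (3.47) and brain (0.190) followed. Marrow was at 56.9 ± 6.38 (SD, n = 6). Ctsk was at 6.23 ± 2.24 (SD, n = 6) in marrow and 7.64 ± 1.19 (SD, n = 5) in spinal cord, and in the 8 tissues it ran from ingSAT (43.7) through pgVAT (7.81), brown fat (5.45) and spleen (3.37) to liver (0.513). Among the 8 tissues, Tnfsf11 was highest in spleen (1.60), overlapping with ileum (0.733), and it was at 0.303 in marrow. Tnfrsf11b was highest in ileum (2.71) among the 8 tissues, at 2.28 in spinal cord and at 0.00335 in marrow, where 5 of 6 control libraries had 0 counts. These levels are a description, with no test.

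**Figure D5:**
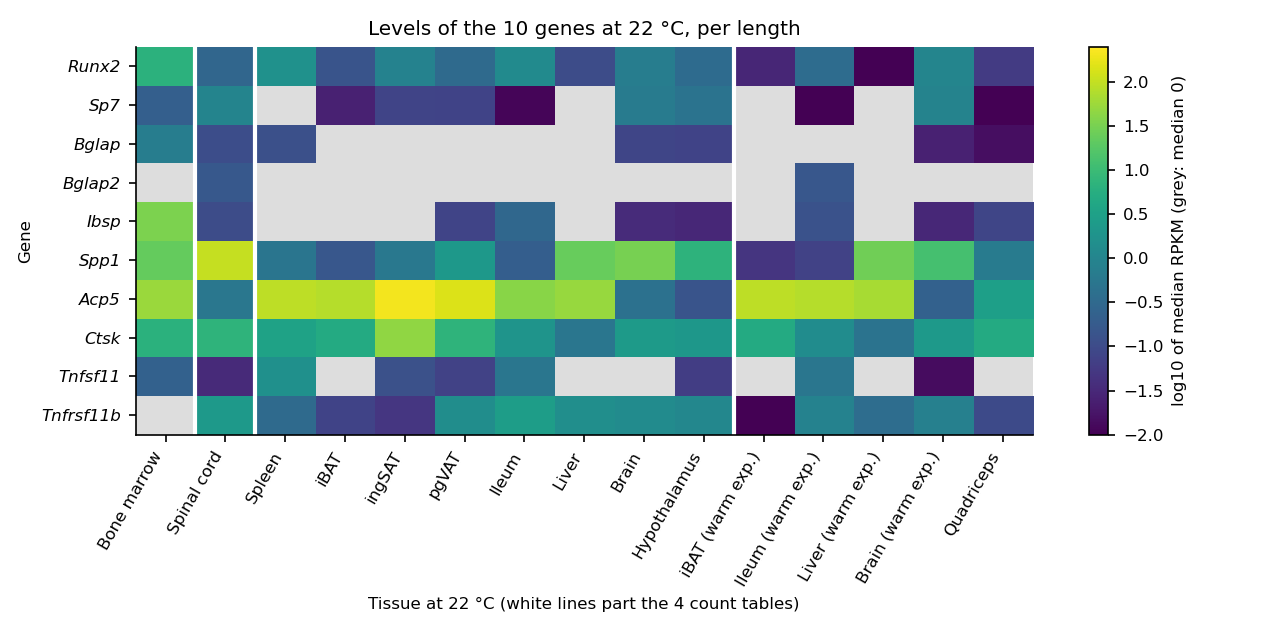
Median RPKM at 22 °C of each gene (rows, log10 colour scale) in each tissue (columns), with white lines between the 4 count tables and grey for a median of 0. Ibsp is at a mean of 33.6 in marrow, Acp5 is highest among the 8 tissues in ingSAT at a mean of 207, and Tnfrsf11b has a median of 0 in marrow.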

How the data were processed

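The deposited values were raw counts per gene, made by the authors from RNA-seq reads aligned to mm10. The submitters' processing notes list STAR 2.5.3a, Picard 1.141 and HTSeq 0.6p1. No column was left unmapped (0), and 37 columns were mapped by group only. All tests were two-sided quasi-likelihood tests in edgeR 4.0.16 (R 4.3.3), run for each tissue on its own groups, with TMM scaling, a mean log2 CPM above 0 and Benjamini-Hochberg adjustment over all genes tested. Tests were checked on simulated counts. Alternatives were DESeq2 1.42.0, edgeR's exact test, library size alone, other filters, the replicate block and leaving out each library. Correlations used 100000 permutations within groups. All 10 genes were read in every comparison, and the plot of log2 differences by gene and comparison has a cell for each. Outside marrow the text names only some of them, chosen after their values were seen. List genes were named only where they passed an adjusted p of 0.05 (at most 6 a list in marrow and 2 elsewhere). The exceptions are those named beside counts, which were also chosen after their values were seen. The 10 genes and all lists were chosen with earlier results of these data known. Where mice were pooled, p-values measure the spread between pools.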

Additional observations from a re-analysis of the deposited data

Results flagged for a closer look

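Dixon's test for a single far value was given to 27 sets of values, each 1 gene in 1 group of 5 or 6 libraries. Chance alone would mark about 1 in 20, and the sets share libraries, so they are not independent. Both sets that stood out were in spinal cord at 10 °C and both far values were replicate 3: Acp5 at 3.45 CPM, next to 1.16 CPM, and Spp1 at 185 CPM, next to 157 CPM. The same library had 40 counts of Ibsp against 4 to 14 in the other 4 cold libraries, a mature neutrophil marker sum of 111 CPM against 21.6 to 48.5 CPM in the other 9 libraries, a neutrophil precursor sum of 13.6 CPM against 2.13 to 5.50 CPM, and a hepatocyte sum of 89.5 CPM, while 22 °C replicate 1 had 303 CPM of the latter. The part of other tissue in these values was not tested.

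The temperature effect differed between the 8 tissues for Runx2 (adjusted p = 0.0123, edgeR interaction test) and for Acp5 (adjusted p = 0.0189). The first was 0.0606 without the 6 pgVAT libraries and the second 0.724 without the brain library with hepatocyte markers. The part of other tissue in these values was not tested.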

How the results depend on the processing

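The counts of calls depend on the rule more than on the scaling. In marrow, the study's limits gave 1 gene, and edgeR's exact test and an adjusted p under 0.05 gave 2 each, with 1 to 2 when 1 library was left out. In the 10 other tissues the main count of 2 became 4 with the exact test, 7 with no filter, 4 with filterByExpr and 0 at an adjusted p under 0.05, and ranged from 1 to 5 when 1 library was left out. It was 5 without ingSAT 22 °C replicate 3, and 1 without pgVAT 22 °C replicate 1 or 2, pgVAT 10 °C replicate 1 or 3, or quadriceps 10 °C replicate 2. At 34 °C the main count of 2 became 6 with no filter and 4 with filterByExpr, and was 2 to 3 when 1 library was left out. Of the 2 genes with a tissue by temperature term, Acp5 alone passed without pgVAT (1 gene) and Runx2 alone (1 gene) without the brain library with hepatocyte markers, a setting chosen after seeing the data.

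Runx2 in marrow, at a log2 difference of −0.02, changed sign to 0.01 with library size alone, to 0.03 and 0.01 without 22 °C replicates 1 and 5 and to 0.01 and 0.04 without 10 °C replicates 1 and 5 (range −0.06 to 0.04), all far under the test's limit. Of 168 values of single genes under alternatives, 158 kept direction and side of the limit, 2 were weaker, 3 stronger and 5 reversed. Replicate numbers did not pair the libraries: no tissue had every same-number correlation above 0.1, nor every library closest to its own number. With the replicate block the 10 other tissues gave 1 call in place of 2 and the tissue by temperature term 0 in place of 2. Depth limits Bglap, Bglap2, Tnfsf11 and Tnfrsf11b, which stayed under the filter in marrow.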
